A study of Mus musculus with 12 samples.

Results

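The liver's secreted signals of fasting and metabolic stress, called hepatokines, were followed by name through a liver RNA-seq experiment on fasted mice with and without long-chain fatty acid oxidation in hepatocytes. The genes were Fgf21, Gdf15, Inhbe, Leap2, Angptl4, Angptl8, Angptl6, Igfbp1 and Fst, 9 of the 56748 genes in the count table. They were picked by name, as secreted liver factors, with earlier results of these livers already known. Their fold changes and adjusted p-values below therefore describe them and are not independent evidence of a direction.

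The 12 livers were taken after a 24 h fast, 4 from each of 3 genotypes. The controls, called WT here, were labelled as CPT1A, CPT1B and CPT2 triple floxed. The single knockout (SKO) was labelled as a CPT2 liver-specific KO, and the double knockout (DKO) as an ATF3 and CPT2 liver-specific double KO. The study bred floxed alleles to albumin-Cre, which is active in hepatocytes and in their shared precursors with bile duct cells, so that most other liver cells are taken to keep both genes. CPT2 is the inner-membrane enzyme that admits long-chain acylcarnitines to mitochondrial beta-oxidation, and ATF3 is a transcription factor induced by cellular stress. Sources differ on the controls, since the labels give neither an Atf3 flox allele nor Cre for them, whereas the study's text describes its controls for the knockouts as floxed for both Atf3 and Cpt2. Which alleles these 4 livers carried was not settled here. The age of the mice is likewise not given there.

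Hepatokines carry the nutritional state of the liver to other organs. FGF21 is made in fasting under PPAR alpha and in amino acid or mitochondrial stress under ATF4, and it acts through FGF receptors with the co-receptor beta-Klotho. GDF15 is a stress cytokine that lowers food intake through the brainstem receptor GFRAL. INHBE forms activin E, which acts on adipose tissue, and follistatin (FST) binds and neutralises activins. LEAP2 opposes ghrelin at the ghrelin receptor and is known to fall in fasting. ANGPTL4 and ANGPTL8 hold back lipoprotein lipase in the fasted and fed state, respectively, ANGPTL6 is a less well understood relative, and IGFBP1, which insulin represses, binds insulin-like growth factors.

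Stretches of 250 bases upstream of the annotated start are shown for the 4 members that were higher in both knockouts and for Angptl8, because several of these genes are known targets of ATF4, FOXO or PPAR alpha and moved together in the livers. They come from RefSeq for the build GRCm38.p6 and are written in the direction of the gene, 5′ to 3′. Capitals mark the ATF4 composite core TTGCATCA on either strand or, in Igfbp1, the insulin response sequence CAAAACAA. Of the 9 members, 6 had a window, 7 windows in all. None was at hand for Leap2, Angptl4 or Fst.
Fgf21, chr7:45615491-45615740, minus strand: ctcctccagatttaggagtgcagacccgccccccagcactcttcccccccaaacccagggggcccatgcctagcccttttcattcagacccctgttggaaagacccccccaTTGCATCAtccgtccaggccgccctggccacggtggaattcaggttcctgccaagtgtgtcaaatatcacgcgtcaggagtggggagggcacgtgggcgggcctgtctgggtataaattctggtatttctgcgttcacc
Inhbe, chr10:127351849-127352098, minus strand: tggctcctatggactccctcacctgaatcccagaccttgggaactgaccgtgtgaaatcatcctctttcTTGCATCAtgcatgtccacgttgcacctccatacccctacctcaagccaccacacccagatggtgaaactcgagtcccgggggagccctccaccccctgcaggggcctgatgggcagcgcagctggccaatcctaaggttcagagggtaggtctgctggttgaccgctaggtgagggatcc
Angptl8, chr9:21835260-21835509, plus strand: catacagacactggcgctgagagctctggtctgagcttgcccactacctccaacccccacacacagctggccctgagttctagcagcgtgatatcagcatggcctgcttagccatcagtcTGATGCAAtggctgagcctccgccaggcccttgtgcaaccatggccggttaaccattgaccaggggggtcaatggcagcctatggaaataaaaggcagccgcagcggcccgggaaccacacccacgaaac
Igfbp1, chr11:7197537-7197786, plus strand: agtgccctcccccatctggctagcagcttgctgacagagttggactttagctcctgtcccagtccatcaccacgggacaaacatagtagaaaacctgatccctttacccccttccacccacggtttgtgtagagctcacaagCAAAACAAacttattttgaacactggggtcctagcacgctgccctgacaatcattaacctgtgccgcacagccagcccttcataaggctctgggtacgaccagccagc
Gdf15, chr8:70632457-70632706, minus strand: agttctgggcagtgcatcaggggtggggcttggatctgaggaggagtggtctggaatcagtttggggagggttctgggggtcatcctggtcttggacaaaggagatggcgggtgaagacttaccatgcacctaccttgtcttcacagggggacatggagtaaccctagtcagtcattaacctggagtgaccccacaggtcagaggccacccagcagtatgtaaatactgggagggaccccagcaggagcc

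The core TTGCATCA or its reverse TGATGCAA lay 139 bases before the start of Fgf21, 181 before that of Inhbe and 130 before that of Angptl8, where it was on the opposite strand. Over all 32851 such windows, 0.791% held it. CAAAACAA (reverse TTGTTTTG) lay 108 bases before the start of Igfbp1 and was in 2.21% of windows. The E-box CACGTG, in 6.02% of windows, lay 50 bases before the Fgf21 start and 83 before the second Gdf15 start, whose window is not shown. The cAMP response element TGACGTCA (1.55% of windows), the AP-1 element TGACTCA (reverse TGAGTCA, 4.46%) and the direct repeat 1 element of nuclear receptors (0.0335%) were in none of the 7 windows. The motifs were chosen after the sequences had been seen, and a match of letters is no evidence of binding. The shared core did not go with a shared direction, since Fgf21 and Inhbe were higher in the knockouts and Angptl8 was lower.

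Total counts ran from 14710304 to 20030055 per liver, so that 3 counts, the most a count of 0 allows, corresponded to 0.150 to 0.204 counts per 1000000 (CPM). The labels were checked on the deleted genes. Cpt2 measured 199 to 250 CPM in WT livers against 109 to 159 (SKO) and 99.9 to 125 (DKO). Atf3 counts were 17 to 39 in WT and 259 to 1056 in SKO. In DKO they were 164, 177, 265 and 5, so that 3 of the 4 DKO livers lay above every WT liver. Whether those reads span the deleted part of Atf3 could not be seen in a gene-level table. By RT-qPCR the study reported that the rise of Atf3 mRNA with Cpt2 loss was blocked in its double knockouts of both sexes. The RNA-seq was described as done on males, yet SKO 3 and DKO 4 held 18063 and 20855 counts of Xist and at most 2 counts of Kdm5d, Uty, Eif2s3y and Ddx3y together, all on the Y chromosome, against 1 to 19 and 2741 to 4294 in the other 10 livers. DKO 4 also stood apart as a library, with a chi-square per degree of freedom of 220 to 261 against the other DKO livers, which differed among themselves by 31.1 to 37.4. Whether the labels of SKO 3 and DKO 4 hold was not settled here, and the genotype names below are those of the labels. The members' fold changes in DKO, the DKO means that are printed and the main counts of calls that use DKO livers are given with and without DKO 4.

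Hepatocyte identity was clear, with none of 7 marker genes at 0 in any liver, but the summed level of these markers moved with genotype. It was 79187 to 98879 CPM in WT and 45938 to 74337 in SKO, and in DKO it was 44011 to 96631 with DKO 4 at the top. Summed stellate cell markers (8 genes) were 280 to 341 CPM in WT, against 391 to 538 (SKO) and 358 to 459 (DKO). Summed cholangiocyte markers (6 genes) were 27.9 to 33.3 CPM in WT, against 7.41 to 14.5 (SKO) and 9.60 to 31.3 (DKO), again with DKO 4 at the top. In SKO 4 of the 7 hepatocyte markers lay below every WT liver, 3 of the 8 stellate markers above and 2 of the 6 cholangiocyte markers below, and in DKO 2, 1 and 1 did. None of these stellate or cholangiocyte markers was at 0 throughout a group. The sum of macrophage markers (10 genes) overlapped, at 208 to 401, 202 to 458 and 135 to 445 CPM in WT, SKO and DKO, as did that of endothelial markers (7 genes), at 189 to 412, 238 to 304 and 216 to 305 CPM. Among the 10 macrophage markers 1, the lysosomal glycoprotein gene Cd68, lay above every WT liver in SKO, at 24.2 to 54.7 CPM against 5.66 to 11.1, and it overlapped with WT in DKO, at 9.48 to 24.96. White adipocyte markers (4 genes) stayed at or below 0.674 CPM in every liver. In bulk tissue, fewer cells of a type and less RNA per cell cannot be told apart, and the part of cell makeup in the results below was not tested.

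The first question was how loss of Cpt2 in hepatocytes affects fasting and stress hepatokines. In SKO livers the 2 stress hormones Fgf21 and Gdf15 stood out, each more than an order of magnitude above WT, followed by Igfbp1 and Inhbe. Leap2 and Angptl8 were lower. Angptl4, Angptl6 and Fst gave no call. Of the 9 members, all of which passed the low-count filter, 4 were higher and 2 lower at an adjusted p under 0.05, and the median log2 fold change of the 9 was 0.44. Over all 14261 genes tested, 32.1% passed (16.7% higher and 15.4% lower) with a median of 0.03. Of the members, 5 did not overlap between the groups, which 33.2% of all genes tested did not. Because the members were chosen with this contrast known, nothing is read from their count against these shares.

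**Figure D1:**
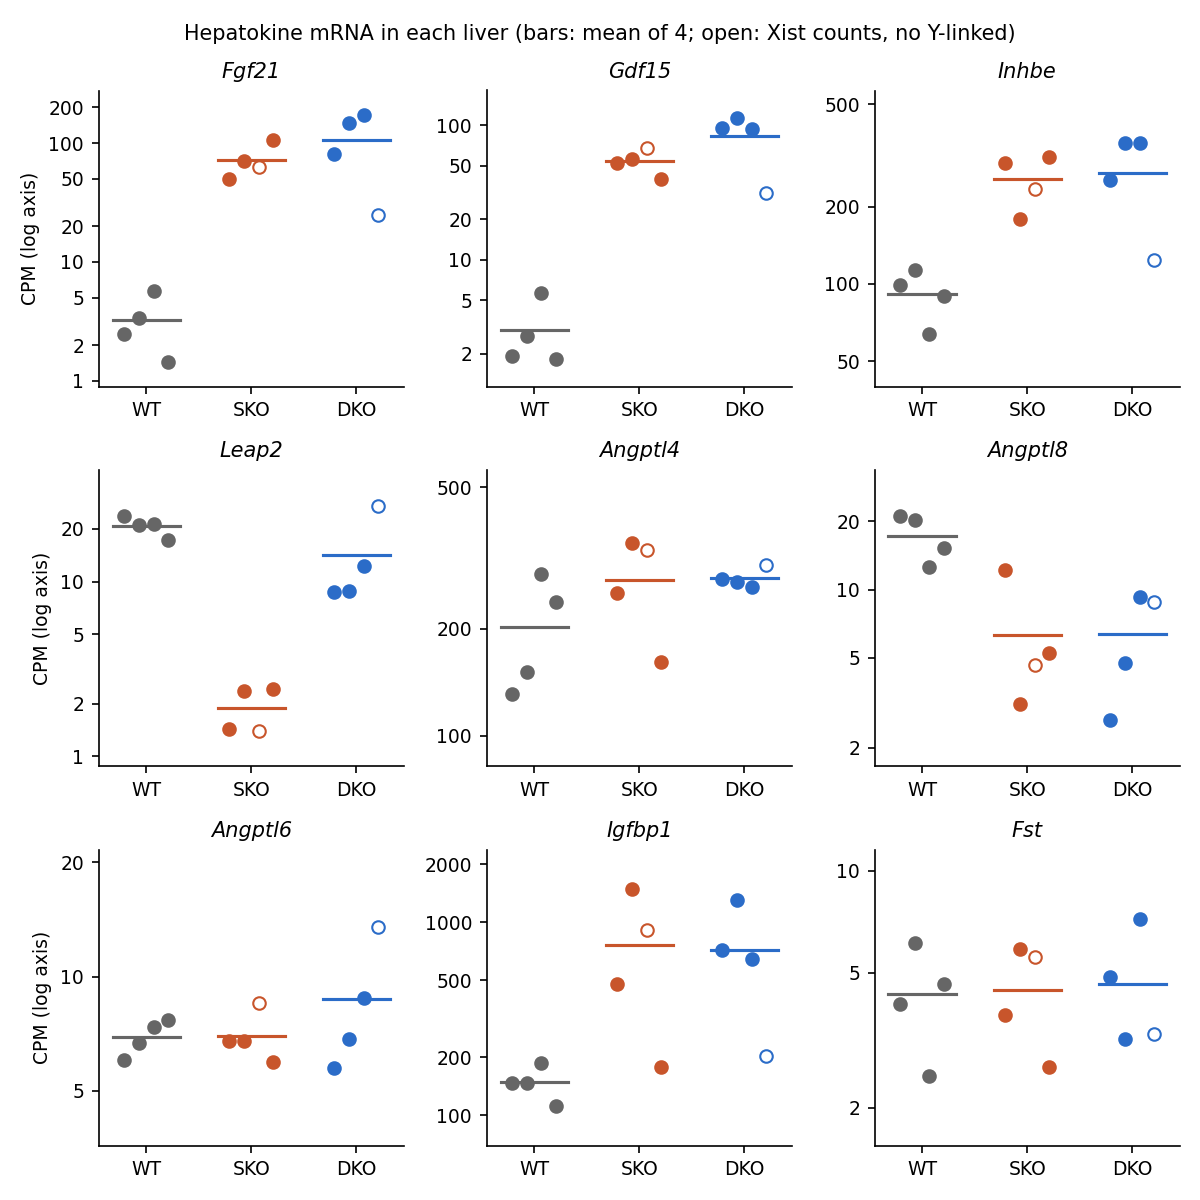
Level of each hepatokine gene in each liver, in CPM on a log axis whose range differs between panels, by genotype. Points are livers, bars the mean of 4, and open points are SKO 3 and DKO 4. Fgf21 and Gdf15 separate WT from both knockouts, and Leap2 of all 4 SKO livers lies under 2.5 CPM, below every DKO and WT liver.

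Fgf21 measured 2.50, 3.35, 5.66 and 1.43 CPM in the 4 WT livers. In SKO it measured 50.2, 70.9, 62.8 and 105 CPM, so that the lowest SKO liver was far above the highest WT liver. The log2 fold change was 4.50 (SE 0.37, 95% interval 3.70 to 5.29, adjusted p = 8.1e-06). The difference came from low WT counts of 26 to 87 per liver against 773 to 1876 in SKO, and its rank by fold change was 35 of the 14261 genes.

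Gdf15 behaved alike, at 1.92, 2.72, 5.59 and 1.81 CPM in WT and 52.4, 55.9, 67.5 and 39.5 in SKO. The groups did not overlap, and WT 3 was the highest control for both hormones. This was a log2 fold change of 4.17 (SE 0.33, 95% interval 3.46 to 4.89, adjusted p = 6.1e-06).

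Inhbe, the activin E subunit, was already abundant in WT at 98.8, 113, 63.7 and 89.8 CPM. In SKO it measured 297, 179, 234 and 311 CPM, with no overlap. Its log2 fold change was 1.48 (SE 0.21, adjusted p = 0.00029). By the spans of the genes, a lncRNA, Gm47200, overlaps it on the other strand with 1 to 29 counts per liver. The counting was not stated to use strand and exons were not compared, so whether reads of the pair are mixed was not settled.

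Igfbp1 was the most variable member in SKO. It measured 146, 147, 188 and 112 CPM in WT and 477, 1489, 913 and 178 in SKO. The groups overlapped, since SKO 4 lay within the WT range while the other 3 SKO livers were all above it. The log2 fold change was 2.36 (SE 0.49, adjusted p = 0.0035), and without SKO 2, the highest liver, it was 1.82 with an adjusted p of 0.010.

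Leap2 had the smallest p-value of the 9 members in this comparison. It measured 23.8, 21.1, 21.3 and 17.4 CPM in WT and 1.43, 2.35, 1.40 and 2.41 in SKO, where counts were 22 to 46 per liver against 316 to 458. Every SKO liver was lower than every WT liver by a wide margin. This gave a log2 fold change of -3.45 (SE 0.22, 95% interval -3.94 to -2.97, adjusted p = 1.8e-06).

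Angptl8, the feeding-induced lipase inhibitor, measured 21.1, 20.3, 12.6 and 15.3 CPM in WT and 12.2, 3.12, 4.62 and 5.22 in SKO. SKO 1 came close to the lowest WT liver, and the groups did not overlap. Its log2 fold change was -1.48 (SE 0.36, adjusted p = 0.0083). By the spans of the genes, all of Angptl8 lies within Dock6 on the opposite strand, which had 264 to 521 counts per liver. Their exons were not compared, so whether Angptl8 counts include reads of Dock6 was not settled.

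The remaining members gave no call. Angptl4, the fasting-induced lipase inhibitor, measured 131 to 285 CPM in WT and 162 to 350 in SKO, with a log2 fold change of 0.44 (95% interval -0.17 to 1.05, adjusted p = 0.26). Angptl6 measured 6.03 to 7.69 CPM in WT and 5.95 to 8.52 in SKO, with a log2 fold change of 0.01 (95% interval -0.38 to 0.39, adjusted p = 0.98), although 500 bases of it overlap the more abundant Shfl (559 to 1500 counts) on the other strand. Fst measured 2.47 to 6.14 CPM in WT and 2.64 to 5.88 in SKO, with a log2 fold change of 0.05 (95% interval -0.65 to 0.74, adjusted p = 0.93).

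The second comparison asked the same of livers labelled as lacking both Atf3 and Cpt2, against the same 4 WT livers. Fgf21, Gdf15, Inhbe and Igfbp1 were higher and Angptl8 was lower, 5 of 9 members, whereas Leap2 gave no call with all 4 DKO livers. The median log2 fold change of the 9 was 0.48. Of all 14448 genes tested, 10.5% passed (6.06% higher, 4.39% lower) with a median of 0.03. Of the members 5 did not overlap, which 16.8% of all genes tested did not, and nothing is read from the members' counts against these shares for the reason given above. Without DKO 4, 4 members were higher and 2 lower with a median of 0.43, and of all genes tested 35.9% passed (18.4% higher, 17.5% lower). DKO 4 was the lowest DKO liver for the 4 members that were higher, and the highest for Leap2.

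Fgf21 measured 81.0, 147 and 173 CPM in DKO 1 to 3 and 24.8 in DKO 4, all above the WT range. The log2 fold change was 5.06 (SE 0.64, adjusted p = 0.0060), or 5.39 (SE 0.38) without DKO 4. Gdf15 measured 95.4, 113 and 93.2 CPM in DKO 1 to 3 and 31.4 in DKO 4, and the log2 fold change was 4.81 (SE 0.49, adjusted p = 0.0034), or 5.09 (SE 0.30) without DKO 4. Both kept their call whichever liver was left out, with adjusted p of at most 0.035 and 0.024.

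Inhbe measured 255, 354 and 353 CPM in DKO 1 to 3 and 123 in DKO 4, just above the highest WT liver. Against WT the log2 fold change was 1.58 (SE 0.32, adjusted p = 0.020), and without DKO 4 it was 1.82 (SE 0.19, adjusted p = 3.4e-05). The call was lost, at adjusted p of 0.050 to 0.063, when any of DKO 1, DKO 2, DKO 3, WT 1, WT 2 or WT 4 was left out, with log2 fold changes of 1.42 to 1.69.

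Igfbp1 measured 715, 1309, 643 and 203 CPM in DKO 1 to 4, each above every WT liver. Against WT its log2 fold change was 2.28 (SE 0.45, adjusted p = 0.020), and without DKO 4 it was 2.58 (SE 0.24, adjusted p = 1.9e-05). Leaving out DKO 1, DKO 3, WT 1, WT 2 or WT 4 moved the adjusted p to between 0.050 and 0.066, with log2 fold changes of 2.16 to 2.33.

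Angptl8 measured 2.65, 4.72, 9.30 and 8.84 CPM in DKO 1 to 4, each below every WT liver. This was a log2 fold change of -1.42 (SE 0.37, adjusted p = 0.040), and without DKO 4 it was -1.63 (adjusted p = 0.0045). Without any 1 of the other 7 livers the adjusted p was 0.056 to 0.11, with log2 fold changes of -1.67 to -1.16.

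Leap2 measured 8.73, 8.82 and 12.3 CPM in DKO 1 to 3, all below the WT range of 17.4 to 23.8, and 27.2 in DKO 4, above it. With all 4 livers the log2 fold change was -0.53 (SE 0.35, adjusted p = 0.34). Without DKO 4 it was -1.07 (SE 0.17, adjusted p = 0.00062). The call for Leap2 in this comparison thus turned on 1 library.

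The other 3 members gave no call here either. Angptl4 measured 277, 271, 262 and 302 CPM in DKO 1 to 4, a log2 fold change of 0.48 (95% interval -0.04 to 1.00, adjusted p = 0.21) that was 0.43 without DKO 4. These were its closest replicates, with a highest value 1.15 times the lowest, against 2.17 and 2.16 times in WT and SKO. Angptl6 measured 5.74 to 8.79 CPM in DKO 1 to 3 and 13.5 in DKO 4, a log2 fold change of 0.35 (95% interval -0.24 to 0.94, adjusted p = 0.41) that was 0.04 without DKO 4. Fst measured 3.19 to 7.22 CPM, a log2 fold change of 0.12 (95% interval -0.64 to 0.89, adjusted p = 0.84) that was 0.25 without DKO 4.

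**Figure D2:**
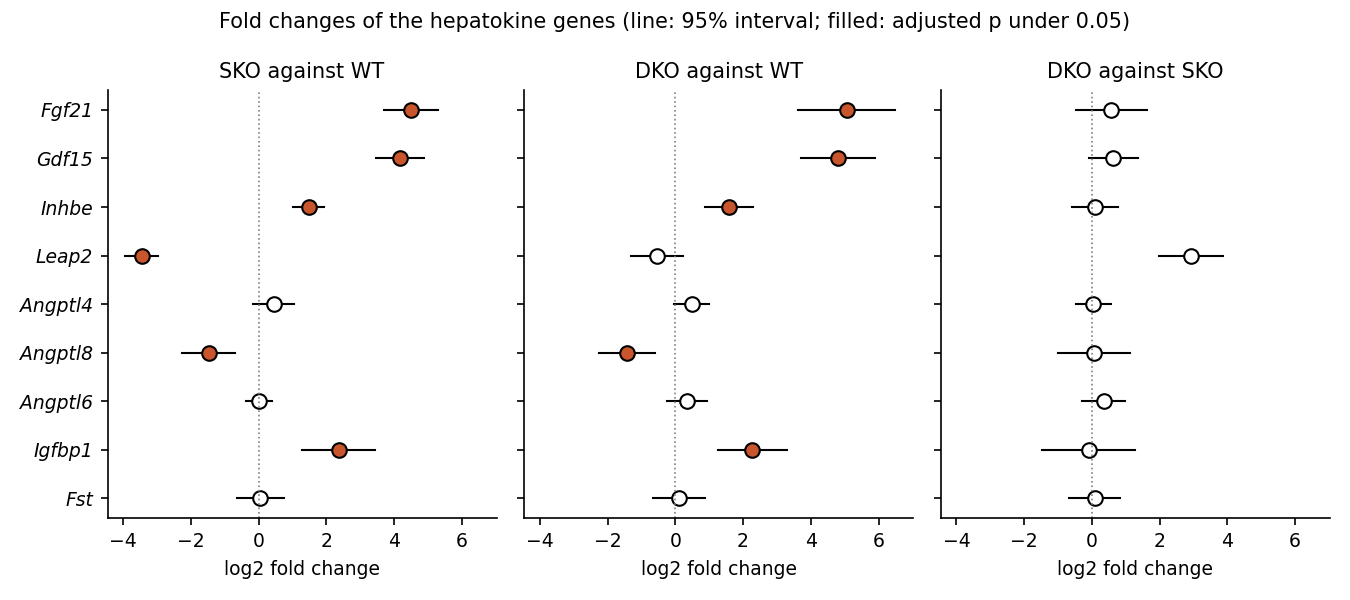
Log2 fold change of the 9 genes in the 3 comparisons. Points are edgeR estimates, lines their 95% intervals, and filled points have an adjusted p under 0.05. Fgf21 and Gdf15 lie above 4 in both comparisons with WT, and Leap2 is the only member whose interval for DKO against SKO lies clear of 0.

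The third comparison, DKO against SKO, sets livers labelled as lacking both Atf3 and Cpt2 against livers labelled as lacking Cpt2 alone. Given the Atf3 counts above, it compares labels and cannot be said to isolate the loss of Atf3. No member passed the threshold, and of all 14363 genes tested 3, or 0.0209%, did by edgeR, with 932 at an unadjusted p under 0.05. Without DKO 4, edgeR called 15 genes (0.103%), with Leap2 the single member. DESeq2 called 97 genes with all 4 DKO livers, among them 1 member, Leap2. Leap2 was higher in all 4 DKO livers than in any SKO liver, the only member without overlap, which 3.94% of all genes tested shared. Its log2 fold change was 2.94 (SE 0.43, 95% interval 1.99 to 3.88), with an adjusted p of 0.10 and rank 5 by p-value. It passed without DKO 4, at 2.39 (SE 0.27, adjusted p = 0.0041), and among livers with Y-linked counts alone, at 2.27 (SE 0.28, adjusted p = 0.0089). It did not pass when any of the other 7 livers was left out, at adjusted p of 0.095 to 0.36 and log2 fold changes of 2.81 to 3.12.

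**Figure D3:**
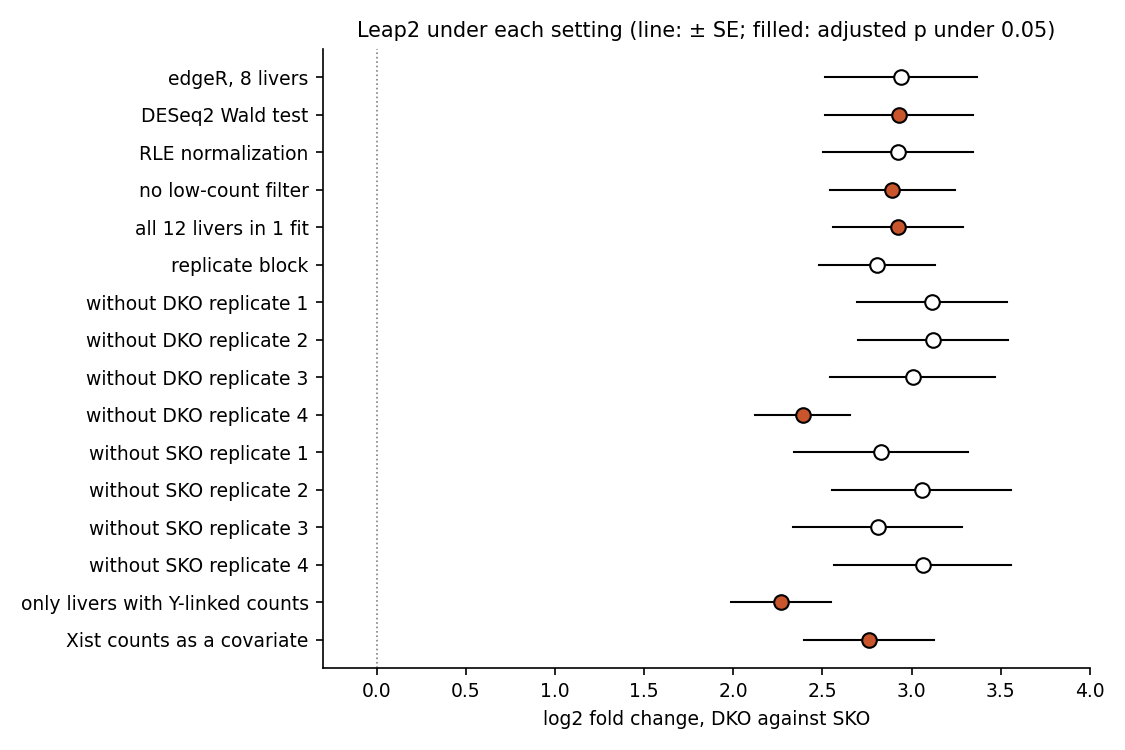
Log2 fold change of Leap2 in DKO against SKO under each setting of the fit. Points are estimates, lines ± SE, and filled points have an adjusted p under 0.05. The estimates run from 2.27 to 3.12, and 6 of the 15 alternatives passed.

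On a log2 scale on which the WT mean is 0% and the SKO mean is 100%, Leap2 of DKO 1 to 4 lay at 36.3, 35.8, 22.1 and -11.3%. DKO livers 1 to 3 were thus between the other 2 genotypes and DKO 4 was beyond WT. Fgf21 lay at 105, 124, 129 and 67.3% and Gdf15 at 120, 126, 119 and 82.3% on the same scale.

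For the other 8 members DKO against SKO gave adjusted p-values of 0.79 or more, and the intervals say how large a difference remains possible. Fgf21 differed by a log2 fold change of 0.57 (95% interval -0.48 to 1.61) and Gdf15 by 0.64 (-0.09 to 1.37). Gdf15 of DKO 1 to 3 was above every SKO liver and DKO 4 was below all of them, and without DKO 4 its log2 fold change was 0.91 (adjusted p = 0.14). Inhbe differed by 0.10 (-0.58 to 0.78), Igfbp1 by -0.09 (-1.47 to 1.29) and Angptl8 by 0.06 (-1.01 to 1.13). Angptl4 had the narrowest interval, 0.04 (-0.48 to 0.57). Angptl6 differed by 0.35 (-0.28 to 0.98) and Fst by 0.08 (-0.69 to 0.84). Without DKO 4 the log2 fold change was 0.89 for Fgf21, 0.34 for Inhbe, 0.22 for Igfbp1, -0.16 for Angptl8, -0.015 for Angptl4, 0.033 for Angptl6 and 0.20 for Fst, again with no call. With all 4 DKO livers the intervals of Igfbp1 and Angptl8 still allow a 2-fold difference in either direction.

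Compared per transcript length, in the deposited FPKM, Igfbp1 was the highest member in each genotype, with means of 102 ± 21.5 (WT), 519 ± 389 (SKO) and 483 ± 301 (DKO), each SD over 4 livers. The order below it changed with genotype. In WT the means then ran from Angptl4 (59.6) to Leap2 (41.2), Angptl8 (20.9), Inhbe (17.96), Angptl6 (4.59), Fgf21 (3.56), Gdf15 (1.70) and Fst (0.984). The ranges of livers did not overlap between Leap2 and Angptl8 or between Inhbe and Angptl6, and overlapped for the other neighbours.

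In SKO, Fgf21 (78.4 FPKM) and Angptl4 (79.9) were level with overlapping ranges, Inhbe (49.5) and Gdf15 (30.01) followed, and Leap2 (3.69) fell to the eighth place, above Fst (1.01). In DKO, Fgf21 (115) came next to Igfbp1 with overlapping ranges, and Leap2 (27.9) was between Gdf15 (46.3) and Angptl8 (7.64). Without DKO 4 the DKO means were 597 FPKM for Igfbp1, 144 for Fgf21, 55.8 for Gdf15, 19.2 for Leap2 and 6.59 for Angptl8, the order of the 9 members was the same, and the ranges of Igfbp1 and Fgf21 no longer overlapped. Fst was the lowest member in each genotype.

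**Figure D4:**
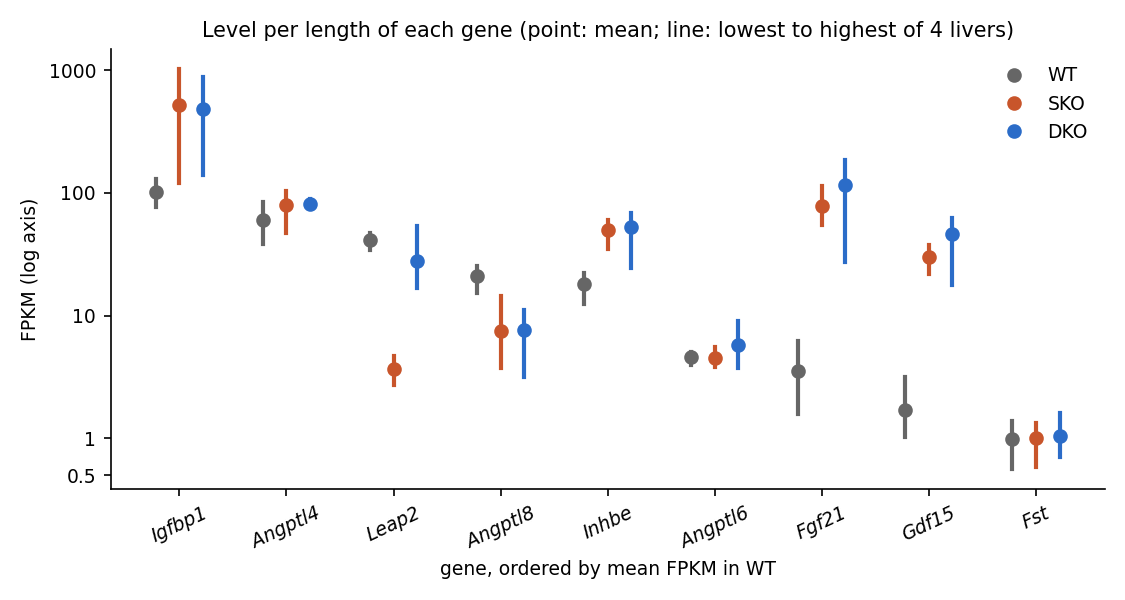
Level per transcript length of each gene, in FPKM on a log axis, ordered by the WT mean. Points are means of 4 livers and lines run from the lowest to the highest liver. Fgf21 and Gdf15 move from near the bottom in WT, at 3.56 and 1.70, to 78.4 and 30.01 in SKO, while Leap2 drops from 41.2 to 3.69.

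The partners of these hormones were taken from 10 lists of related genes. Of 151 listed genes in the table, 131 were tested in SKO against WT and 67 passed, 32 higher and 35 lower, with a median log2 fold change of -0.02. Over all genes tested there, 32.1% passed. In DKO against WT, 27 of 132 passed, 16 higher and 11 lower, with a median of -0.02, and over all genes 10.5% did. That second count was 72, 32 higher and 40 lower, without DKO 4, where 35.9% of all genes passed, and 6 to 16 without any 1 of the other 7 livers. In DKO against SKO, 0 of 133 passed by edgeR or DESeq2, with 12 at an unadjusted p under 0.05 in edgeR, and 0 of 134 passed in edgeR without DKO 4. The lists were chosen with earlier results known, so that these shares of all genes stand beside their counts as a description.

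Among the receptors, 5 of 11 tested were lower and none higher in SKO, with a median log2 fold change of -0.32, where 15.4% of all genes tested were lower and 16.7% higher. Klb, the co-receptor that FGF21 needs, measured 39.8, 47.1, 52.1 and 48.9 CPM in WT and 27.6, 15.3, 22.3 and 16.5 in SKO, a log2 fold change of -1.20 (SE 0.18, adjusted p = 0.00047). Fgfr4, the main hepatocyte FGF receptor, had -0.85 (SE 0.15, adjusted p = 0.0012), Fgfr1 had -0.84 (SE 0.18) and Fgfr3 had -0.93 (SE 0.23). Klb, Fgfr4 and Fgfr1 did not overlap between SKO and WT, whereas Fgfr3 did, at 26.2 to 44.4 CPM in WT and 13.97 to 28.2 in SKO. Fgfr2, named after its values were seen, gave no call, at 25.5 to 40.9 CPM in WT and 27.0 to 38.6 in SKO (log2 fold change -0.12, adjusted p = 0.62).

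In DKO against WT, 5 of 11 receptors were again lower and none higher, where 4.39% of all genes were lower. Klb measured 16.4, 25.1, 15.2 and 34.5 CPM, all below WT, a log2 fold change of -1.03 (SE 0.25, adjusted p = 0.032), and Fgfr4 had -0.73 (SE 0.13, adjusted p = 0.014). Without DKO 4 the list count was 6 lower, where 17.5% of all genes were, and Klb had -1.31 and Fgfr4 -0.80. Without any 1 of the other 7 livers the list count was 0 to 2, the Klb call was lost, at adjusted p of up to 0.083, and that of Fgfr4 was lost only without WT 2, at 0.053. The receptors Gfral, Ghsr, Ret and Acvr1c, of which the first 3 serve GDF15 and ghrelin and the last activin E, did not pass the low-count filter. Gfral and Ghsr had 0 counts in all 12 livers, which allows at most 0.204 CPM in any of them. These 4 were named after their values were seen.

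Among lipase genes and relatives of the ANGPTL family, few of those reported passed. Of 9 lipase genes and partners, Lipc, hepatic lipase, alone passed in SKO, at -1.11 (SE 0.14), where 16.7% of all genes were higher and 15.4% lower. The count was 1 to 3 without single livers. With all 4 DKO livers 0 of 9 passed against WT by edgeR or DESeq2, with 1 at an unadjusted p under 0.05, and 3 were lower without DKO 4 (17.5% of all genes). Lpl, the target of the ANGPTL proteins, had -0.57 (adjusted p = 0.11) in SKO, and Angptl2 had 0.07 (adjusted p = 0.82). Of 2 ANGPTL relatives tested in DKO against WT 0 passed, where 6.06% of all genes were higher and 4.39% lower. Without DKO 4, 1 of these 2 was higher, beside 18.4% of all genes.

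The list of relatives of IGFBP1, which bind or carry insulin-like growth factors, also holds the growth factors themselves. It gave 4 of 7 tested lower and 2 higher in SKO, beside 15.4% and 16.7% of all genes. Without single livers the count of lower genes was 4 throughout, and that of higher genes was 0 to 2, with 0 without WT 4. Igfbp4 had a log2 fold change of -1.12 (SE 0.14), Igfals -1.30 (SE 0.24) and Igfbp5 -1.53 (SE 0.40), while Igfbp3 had 0.71 (SE 0.19) with groups that overlapped, a call lost without WT 1 or WT 4 (adjusted p of up to 0.055). In DKO Igfbp4 alone passed with all 4 livers, where 4.39% of all genes were lower (2 genes, both lower, without DKO 4, where 17.5% were), at -0.90 (SE 0.23, adjusted p = 0.040), a call that held only when DKO 4, and no other single liver, was left out. Among the activin and TGF-beta relatives, 1 of 11 was higher and 1 lower in SKO, beside 16.7% and 15.4% of all genes. The count of higher genes was 2 without SKO 1, where Tgfb3 also passed. With all livers the 2 genes called were Inhbb at 1.34 (SE 0.36) and Inhba at -1.29 (SE 0.31), the beta subunits of activins B and A. Against WT neither passed in DKO, at 0.63 (adjusted p = 0.33) and -0.36 (adjusted p = 0.43), and both did without DKO 4. Tgfb3, a TGF-beta ligand, was there the 1 gene of the list that passed with all 4 livers, where 6.06% of all genes were higher and 4.39% lower, at 1.38 (SE 0.32, adjusted p = 0.030), from 7 to 13 counts in WT to 24 to 35 in DKO, without overlap. It lost the call without DKO 1, DKO 2, DKO 3, WT 1, WT 2 or WT 4, and without DKO 4 the list had 2 higher and 1 lower, beside 18.4% and 17.5%. Fgf1 was the single tested gene of its list and was lower in SKO, as 15.4% of all genes were, at -1.73 (SE 0.24). In DKO it had -1.19 (adjusted p = 0.060) against WT, and without DKO 4 it was lower at -1.71 (adjusted p = 3.6e-05), as 17.5% of all genes were.

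**Figure D5:**
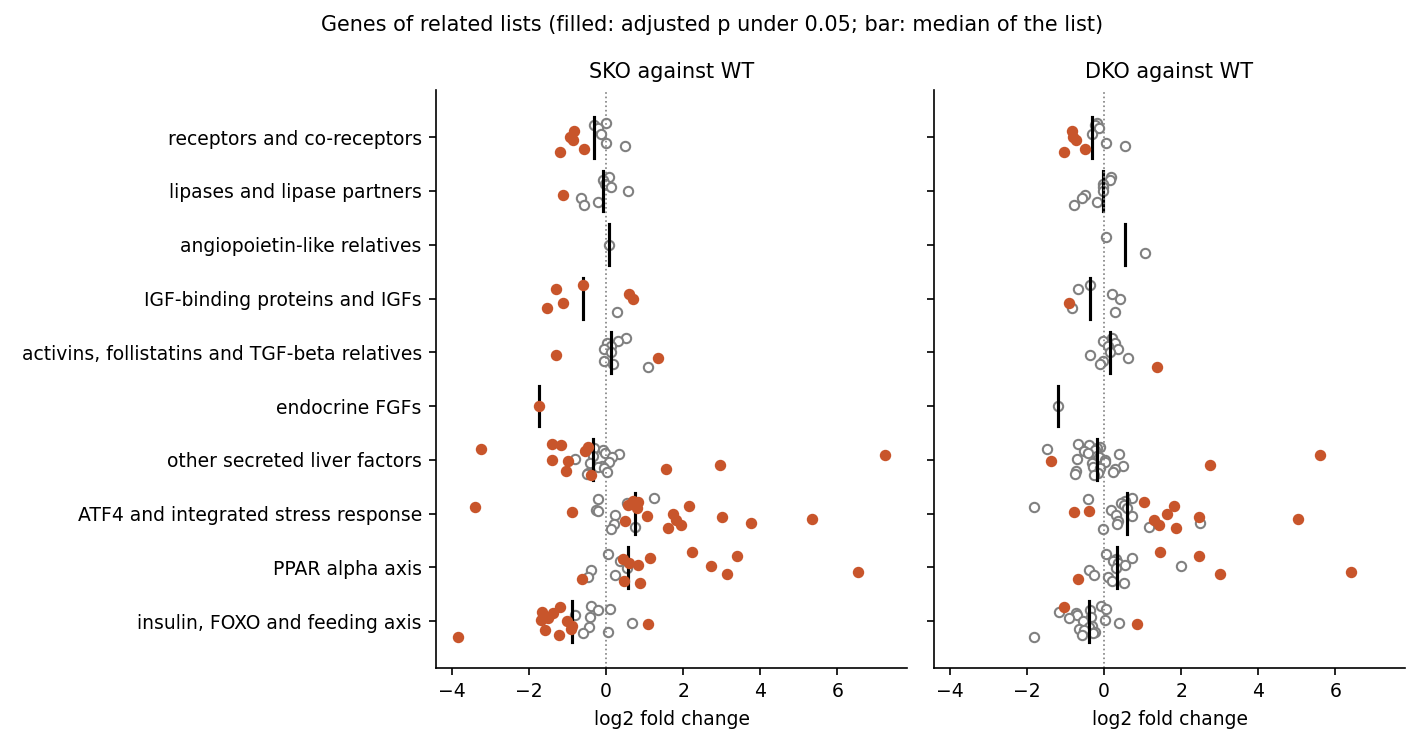
Log2 fold change of each tested gene of the 10 lists, in SKO and in DKO against the same WT livers. Filled points have an adjusted p under 0.05 and bars are list medians. In the receptor list all 5 filled points lie below 0 in each panel, and in the PPAR alpha list Pdk4 lies farthest out, at 6.54 and 6.40.

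The pathways known to drive these hormones were also measured. Of 25 tested genes of the ATF4 and integrated stress response list, 14 were higher and 2 lower in SKO, with a median log2 fold change of 0.74, beside 16.7% and 15.4% of all genes. Slc3a2, a subunit of amino acid transporters, had 1.94 (SE 0.12), Psat1, of serine synthesis, 3.75 (SE 0.28), and Eif2ak3, the ER stress kinase PERK, 1.72 (SE 0.21). Cth, which makes cysteine and is also a target of ATF4, had -3.40 (SE 0.23), from 782 to 1015 CPM in WT to 51.6 to 113 in SKO. In DKO against WT 8 were higher and 2 lower, beside 6.06% and 4.39% of all genes. Without DKO 4 the counts were 17 and 3 of 26, beside 18.4% and 17.5%, and without any 1 of the other 7 livers 1 to 5 were higher and 0 to 1 lower.

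Of 18 tested genes of the PPAR alpha list, 11 were higher and 1 lower in SKO, with a median of 0.58, beside the same 16.7% and 15.4% of all genes. Pdk4, the kinase that shuts off pyruvate dehydrogenase, measured 6.81, 5.70, 12.6 and 6.76 CPM in WT and 816, 700, 928 and 517 in SKO, a log2 fold change of 6.54 (SE 0.31). Acot1 had 3.39 (SE 0.22), the lipid droplet protein gene Plin2 3.15 (SE 0.21) and Ehhadh, of peroxisomal beta-oxidation, 2.73 (SE 0.24). In DKO against WT 4 were higher and 1 lower (6.06% and 4.39% of all genes), and 9 were higher and 2 lower without DKO 4 (18.4% and 17.5%). Without any 1 of the other 7 livers 3 were higher and 0 lower. Pdk4 measured 842, 1013 and 747 CPM in DKO 1 to 3 and 69.8 in DKO 4, above every WT liver.

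The list of insulin, FOXO and feeding genes went mostly the other way, with 1 of 21 tested higher and 11 lower in SKO and a median of -0.89, again beside 16.7% and 15.4% of all genes. Thrsp, a feeding-induced lipogenic gene, had -3.84 (SE 0.26), Elovl6 -1.67 (SE 0.23) and Acly -1.20 (SE 0.14), while Me1 had 1.08 (SE 0.16). In DKO against WT 1 was higher and 1 lower (6.06% and 4.39% of all genes), and without DKO 4 the counts were 1 and 12 (18.4% and 17.5%). Without any 1 of the other 7 livers 0 were higher and 0 to 1 lower. Thrsp measured 3.71, 1.96 and 4.83 CPM in DKO 1 to 3 and 29.98 in DKO 4, against 23.2 to 44.3 in WT.

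Of 27 other secreted factors tested, 3 were higher and 9 lower in SKO, beside 16.7% and 15.4% of all genes. Against WT 2 were higher and 1 lower in DKO (6.06% and 4.39% of all genes), and without DKO 4 the counts were 2 and 10 of 26 (18.4% and 17.5%). Without any 1 of the other 7 livers 1 to 2 were higher and 1 lower, and the call that changed was that of Gpnmb, which did not hold without DKO 3, WT 1, WT 2 or WT 4 and which did not pass the low-count filter without DKO 1. Gpnmb, a membrane glycoprotein that can be shed, was at 0 to 0.506 CPM in WT livers, against 26.4 to 54.8 (SKO) and 0.586 to 23.0 (DKO), with DKO 4 the lowest. The macrophage marker Cd68 was also above WT in SKO, as given above, and its part in the Gpnmb values was not tested. Enho, which encodes adropin, had -3.24 (SE 0.27), Serpinf1 -1.04 (SE 0.13) and Agt, angiotensinogen, -1.40 (SE 0.18). For Enho, DKO 4 measured 25.1 CPM, within the WT range of 16.9 to 29.0, and DKO 1 to 3 measured 2.08 to 3.38, like the 1.30 to 3.38 of SKO.

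The genes whose log2 CPM followed each member most closely over the 12 livers, among 13072 with a mean of at least 1 CPM, are given as a description. The livers share genotype groups, so Pearson's r is given over all livers and, in parentheses, after centring on each genotype. All 12 livers, DKO 4 among them, enter both values, and the weight of DKO 4 in them was not tested. For both Fgf21 and Gdf15 the closest was Gm47528, with r of 0.98 (0.86) and 0.98 (0.84), then Ctsz. Next came Cln6 for Fgf21, with 0.97 (0.83), and Pdk4 for Gdf15, with 0.97 (0.87). Leap2 was most like Agxt2, with 0.97 (0.64), Fndc4 and Psen2. Inhbe was most like Elovl5, with 0.97 (0.87), Irak2 and Morc4. Igfbp1 was most like Pofut2, with 0.93 (0.86), Cpt1b, with 0.93 (0.91), and Rassf1. Angptl8 was most like Adamts7, with 0.94 (0.88), Nuak2 and Gm45724.

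The members that gave no call had their nearest genes at lower or within-group likeness. Angptl4 was most like Med20, with 0.92 (0.94), Hand2 and Xylb. Among the genes most like Angptl6 were Rab10os, with 0.87 (0.92), and Col6a1, and Fst was most like Gm10709, with 0.87 (0.88), Dynlt4 and Spon1.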

How the data were processed

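Total RNA of 12 flash-frozen mouse livers was sequenced by a commercial provider. The labels' processing notes name HISAT2, GRCm38 and mm10. The counting program, its use of strand and the annotation release are not given in the sources used here. The authors deposited raw read counts per gene (not normalized) and FPKM per gene, scaled by them for length and depth. Gene positions in the count table matched GENCODE M21 (GRCm38) for 1472 of 52073 shared genes and for 0 of 9 members, so that none was printed. The deposited tables of the authors' own comparisons hold log2 fold changes, p-values and 72 columns of per-liver values, and were not used.

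Counts were tested with edgeR 4.0.16 in R 4.3.3 (filterByExpr, TMM, quasi-likelihood F-test) for each pair of genotypes, 8 livers a fit, with Benjamini-Hochberg adjustment over all genes tested and a threshold of 0.05. SEs were derived from the F statistic and 95% intervals from its degrees of freedom. CPM used TMM factors over all 12 livers, and log2 CPM a prior count of 2. FPKM served only to compare levels between genes. The procedure was tested on simulated counts.

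Groups follow the genotype labels, and numbers follow the titles. The labels do not pair the numbers, and correlations of same-numbered livers' deviations ran from -0.387 to 0.106. The labels do not say that the livers of a group came from separate litters or cages, so p-values measure the spread between these samples. No pair within a group agreed within sampling noise. The members, gene lists and tests were chosen with earlier results of these data known. Named were all 9 members, the deleted, Xist and Y-linked genes, the up to 4 genes of each list with the smallest p in SKO against WT, and the 3 genes most like each member. Alternatives were DESeq2 1.42.0, RLE factors, no low-count filter, all 12 livers in 1 fit, a replicate block, leaving out each liver, only livers with Y-linked counts, and presence of Xist as a covariate. A listed gene and a gene similar to a member are not reported here. Promoter windows came from RefSeq, GRCm38.p6. Intervals on counts of 0 cover counting error only.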

Additional observations from a re-analysis of the deposited data

Results flagged for a closer look

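Single livers far from the other 3 of their genotype were looked for by Dixon's test on CPM, which sets the gap to the nearest liver against the group's range, at its 95% critical value. Chance marks about 1 in 20 groups. For the 9 hepatokine genes none of 27 groups was marked. DKO 4 was nonetheless the lowest DKO liver for Fgf21, Gdf15, Inhbe and Igfbp1 and the highest for Leap2. For 34 other genes, those with the smallest p of each list, 15 of 102 groups were marked, against 5.1 from chance. Of the 15, 11 were DKO 4. All genes were measured in the same livers, so the groups are not independent and nothing is read from 15 against 5.1.

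In each of these 11 genes DKO 4 was the highest DKO liver. Among lipase genes and ANGPTL relatives, it measured 173 CPM for Lipc against 44.9 to 57.4 in DKO 1 to 3, 83.3 for Lipg against 10.1 to 20.03, and 15.02 for Angptl2 against 6.90 to 8.13. Among growth factor genes, it measured 1850 CPM for Igfbp4 against 961 to 1036, 102 for Igfals against 28.3 to 37.0, and 148 for Fgf1 against 48.7 to 59.9. Among other secreted factors, it measured 25.1 CPM for Enho against 2.08 to 3.38, 515 for Serpinf1 against 251 to 283, and 888 for Agt against 264 to 293. For Cth it measured 686 CPM against 73.3 to 127, and for Thrsp 29.98 against 1.96 to 4.83. On the CPM scale a low liver is less readily marked than a high one. Pdk4 of DKO 4, at 69.8 CPM below the 747 to 1013 of DKO 1 to 3, was not marked.

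The other 4 marked groups lay in 4 different livers. WT 4 measured 15.2 CPM for Igfbp5 against 3.95 to 5.79 in the other WT livers, WT 1 measured 34.0 for Bmp2 against 12.3 to 14.8, and WT 3 measured 12.6 for Pdk4 against 5.70 to 6.81. SKO 4 measured 6.12 CPM for Elovl6, below the 12.4 to 13.6 of the other SKO livers. No cause of these gaps was tested.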

How the results depend on the processing

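The 6 calls of SKO against WT (Fgf21, Gdf15, Inhbe, Igfbp1, Leap2 and Angptl8) kept direction and side of the threshold in all 14 alternatives, as did Fgf21 and Gdf15 in DKO against WT. The precision is limited by 4 livers a genotype, and counts of calls that use DKO livers moved when single livers were left out. The cause of each change below was not tested.

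Members past the threshold in DKO against WT numbered 5, and 2 to 6 when single livers were left out. For the listed genes the number was 27, with 6 to 72 without single livers and 71 with Xist as a covariate. For all genes it was 1510, with 244 to 5253 without single livers, 2635 by DESeq2, 691 with the replicate block and 5168 with Xist as a covariate. In DKO against WT this covariate marks DKO 4 alone, so it comes close to leaving DKO 4 out and is no separate check. In DKO against SKO the members past the threshold were 0, with 0 to 1 without single livers, and 1 (Leap2) by DESeq2, without a low-count filter, with all 12 livers, with Y-linked livers only and with the Xist covariate. All genes numbered 3, with 0 to 15 without single livers, 97 by DESeq2, 35 without the filter, 21 with Y-linked livers only, 9 with the Xist covariate and 0 with the replicate block.

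The replicate numbers do not pair the livers. Besides these counts, the block took 1 member call, Angptl8 in DKO against WT (-1.53, adjusted p = 0.085). Every liver correlated best with its own number in no comparison.

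Reversals were confined, over the alternatives run, to log2 fold changes without a call. Without single livers, Angptl6 in SKO against WT ran from -0.10 to 0.08 and Fst from -0.16 to 0.24, and Fst in DKO against WT from -0.17 to 0.33. In DKO against SKO, Igfbp1 ran from -0.53 to 0.45, Inhbe from -0.059 to 0.34, Angptl8 from -0.18 to 0.59, Fst from -0.22 to 0.24 and Angptl4 from -0.15 to 0.18. Angptl6 in SKO against WT was also negative by DESeq2 (-0.011), with RLE (-0.012), with all 12 livers (-0.0066) and with the Xist covariate (-0.10), and Fst with that covariate (-0.074). Igfbp1 in DKO against SKO was 0.043 with the replicate block and 0.31 with Y-linked livers only, and Angptl8 was -0.28 there. In the comparisons with WT the restriction to Y-linked livers is the same fit as leaving out SKO 3 or DKO 4. The Xist covariate marks that same liver alone there. Levels per kilobase computed from counts differed from the FPKM by less than 1 SD for every member.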
